A study of Macaca fascicularis with 3 samples.

Results

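The miR-25 family, as taken here, is the group of microRNAs (miRNAs) miR-25, miR-32, miR-92a, miR-92b and miR-363. Its rows were taken by name: every listed mature miRNA whose stem is one of these 5, with any copy number and any arm suffix or none. This gave 6 of the 432 names in the table of raw counts, which were miR-92a-3p, miR-32-5p, miR-363-3p, miR-25, miR-92b-3p and miR-92b-5p. The rule reads names only and uses no count. All 6 names were paired in the authors' second table with the human miRNA of the same name, and miR-25, listed without an arm, was paired with human miR-25-3p. None of the 6 had counts identical to those of another name.

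The libraries came from kidney cortex of 3 naïve cynomolgus monkeys (Macaca fascicularis), aged 2 to 3 years, with 1 small RNA library for each animal. They form a single group, so the comparisons possible were between miRNAs within a library and between the animals. Each piece of cortex was bulk tissue, in which more cells of a type and more of a miRNA in each cell cannot be told apart. The spread between animals also contains the spread between library preparations, since no animal was sequenced more than once.

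A miRNA recognises its targets mainly through its seed, the short stretch near its 5′ end, and the guide strands of miR-25, miR-32, miR-92a, miR-92b and miR-363 share one seed. The guide strand is the arm of the hairpin precursor that is loaded into the silencing complex, here the 3p arm of miR-25, miR-92a, miR-92b and miR-363 and the 5p arm of miR-32. miR-92b-5p is the opposite arm of its hairpin and has another seed. In mammals miR-25 is encoded with miR-106b and miR-93 within the gene MCM7, a replication factor. miR-92a is made both from the miR-17 cluster, known as an oncogenic cluster active in proliferating cells, and from the related miR-106a cluster on the X chromosome, which also holds miR-363. miR-32 lies within the gene TMEM245, and miR-92b is encoded apart from these clusters. Described targets of the shared seed include BCL2L11, which promotes cell death, and miR-92a is known for restraining vessel growth in endothelium. Mature sequences were not analysed here.

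The libraries held 4305977, 4707892 and 3957188 counts assigned to listed miRNAs in animals 1, 2 and 3. The names chosen as markers of kidney were those of miR-204, miR-192, miR-194 and miR-215. Together they had 57055, 61982 and 53073 CPM (counts per 1000000 listed counts), and all 5 names had counts in every library. Most of this sum was miR-204-5p, with 47353, 53577 and 43443 CPM. Its opposite arm miR-204-3p had 437, 529 and 19 counts. By CPM, miR-192-5p and miR-194-5p were lowest in animal 2, and miR-215-5p in animal 3. The liver miRNA miR-122a-5p had 8.83, 7.01 and 4.04 CPM. Among the 156 miRNAs that spanned more than 2-fold, the library of animal 3 was the lowest of the 3 for 89. Among all 391 miRNAs compared between libraries below, it was the lowest for 164, or 41.9%. Some results that rest on the library of animal 3 are also given without it. The marker sums, the arms of the partner hairpins and the search for patterns like that of miR-92a-3p are given with all animals only.

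The family as a whole was a small part of the miRNA content, of similar size in the 3 animals. Its 6 names held 11093, 11744 and 10635 counts in animals 1, 2 and 3. This was 0.2576%, 0.2495% and 0.2688% of the listed counts, with 95% Wilson intervals of 0.2529 to 0.2625, 0.2450 to 0.2540 and 0.2637 to 0.2739. The mean share was 0.259% ± 0.00969 (SD, n = 3). The interval of animal 3 lay above those of animals 1 and 2, which overlapped. These intervals cover counting error only. They take each read as independent, which cannot be checked because the reads carried no molecular identifiers.

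miR-92a-3p, the guide strand common to both miR-92a genes, was the main member. It had 6027, 7306 and 7200 counts in animals 1, 2 and 3, or 1400, 1552 and 1819 CPM, with a mean of 1590 CPM ± 213 (SD, n = 3). It ranked 69th of the 432 names by mean CPM. The level was lowest in animal 1 and highest in animal 3, and every library held more miR-92a-3p than all other family members together.

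miR-32-5p, the only member whose guide is the 5p arm, came next. It had 2226, 2162 and 1195 counts, or 517, 459 and 302 CPM, with a mean of 426 CPM ± 111 (SD, n = 3) and rank 110. Animal 3 was lower than both other animals, the reverse of miR-92a-3p.

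miR-363-3p, encoded on the X chromosome, had 1788, 1113 and 1134 counts, or 415, 236 and 287 CPM. Its mean was 313 CPM ± 92.2 (SD, n = 3), rank 127. Here animal 1 stood above the other 2 animals, of which animal 2 was lowest.

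miR-25, which gives the family its name, was only the fourth member by level. It had 861, 876 and 823 counts, or 200.0, 186 and 208 CPM, with a mean of 198 CPM ± 11.1 (SD, n = 3) and rank 143. The 3 animals lay closer together for miR-25 than for any other member.

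miR-92b-3p, whose gene lies outside the clusters, had 182, 277 and 282 counts, or 42.3, 58.8 and 71.3 CPM. Its mean was 57.5 CPM ± 14.5 (SD, n = 3), rank 201, with animal 1 lowest and animal 3 highest. Its opposite arm miR-92b-5p was near the limit of detection, with 9, 10 and 1 counts, or 2.09, 2.12 and 0.253 CPM. A floor of 3 counts corresponds to 0.697, 0.637 and 0.758 CPM, so the count of animal 3 lay under the floor.

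**Figure D1:**
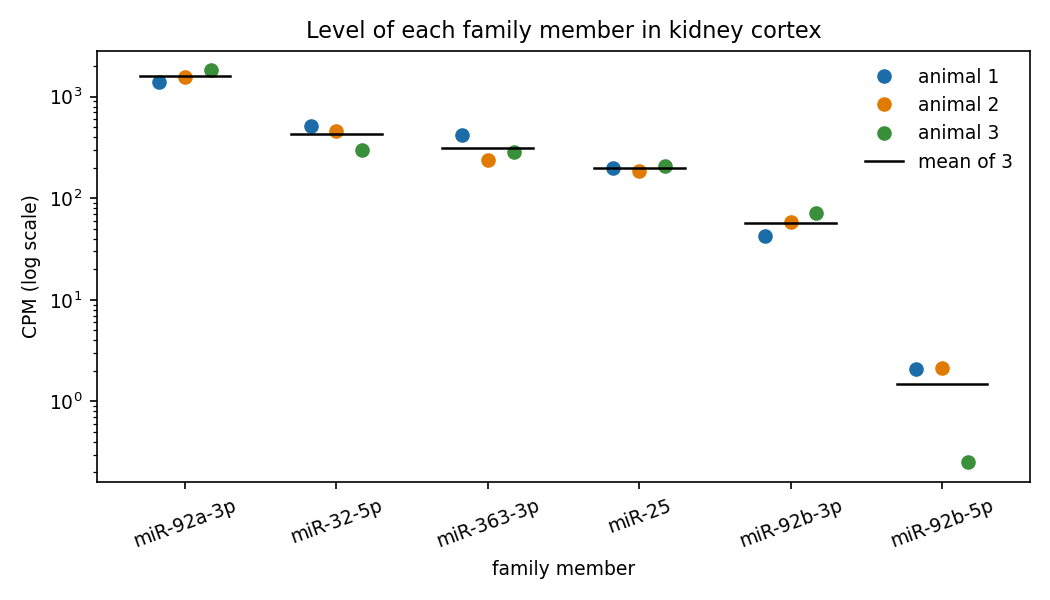
CPM (log scale) of each family member in each of the 3 animals, with colours for animals and a black line for the mean. miR-92a-3p lies between 1400 and 1819 CPM, above every other member in each animal, and miR-92b-5p falls to 0.253 CPM in animal 3.

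The order of the members was the same in all 3 animals. Between neighbours in that order, miR-92a-3p exceeded miR-32-5p by a mean log2 difference of 1.93 ± 0.59 (SD), on log2(CPM + 1) within animals. miR-32-5p exceeded miR-363-3p by 0.45 ± 0.45, and the margin in animal 3 was 0.08. miR-363-3p exceeded miR-25 by 0.62 ± 0.38, miR-25 exceeded miR-92b-3p by 1.80 ± 0.37, and miR-92b-3p exceeded miR-92b-5p by 4.64 ± 1.07. Each of the 5 differences had the same sign in 3 of 3 animals. A two-sided exact permutation test that flips the signs within animals gave p = 0.25 for each, also after Benjamini-Hochberg adjustment over the 5 pairs, which is the smallest that 3 animals allow. The test therefore cannot decide whether the members of any pair differ. For miR-32-5p and miR-363-3p the mean difference was no larger than its SD, with miR-32-5p higher in 3 of 3 animals.

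The make-up of the family shifted between animals more than its total did. miR-92a-3p took 54.3%, 62.2% and 67.7% of the family's counts, with 95% Wilson intervals of 53.4 to 55.3, 61.3 to 63.1 and 66.8 to 68.6. miR-32-5p took 20.1%, 18.4% and 11.2%, with intervals of 19.3 to 20.8, 17.7 to 19.1 and 10.6 to 11.9. These shares are read within a library and do not depend on scaling between libraries.

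For both, the 3 animals came in opposite orders. miR-363-3p took 16.1%, 9.48% and 10.7% in animals 1, 2 and 3, so that animal 1 differed from the others beyond counting error. miR-25 kept a nearly constant share of 7.76%, 7.46% and 7.74%, with overlapping intervals. miR-92b-3p took 1.64%, 2.36% and 2.65%.

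**Figure D2:**
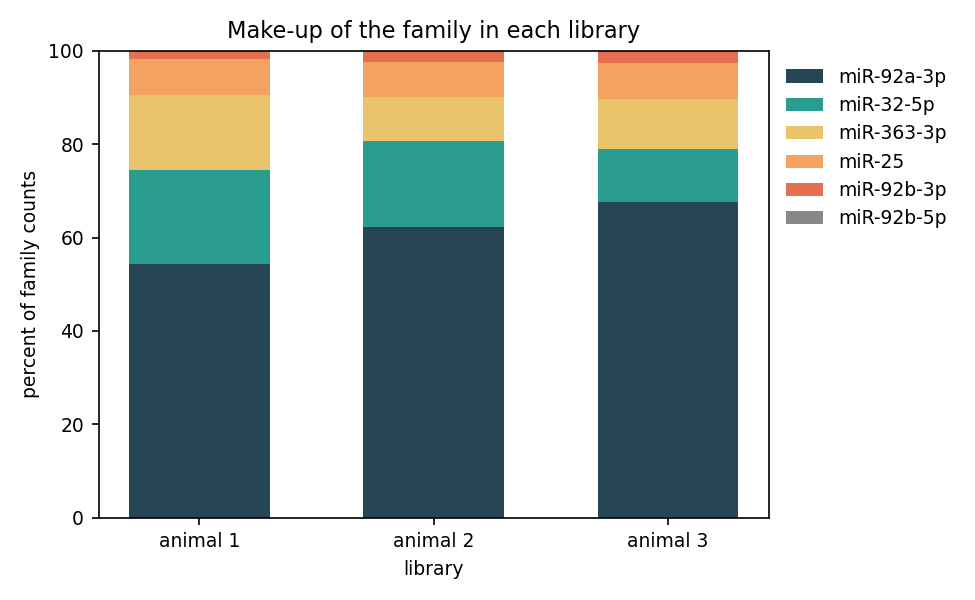
Percent of the family's counts held by each member in the libraries of animals 1, 2 and 3, as bars stacked to 100%. The miR-92a-3p part grows from 54.3% in animal 1 to 67.7% in animal 3 while the miR-32-5p part falls from 20.1% to 11.2%, and miR-92b-5p is too small to see.

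Differences between animals were then set against counting error. A chi-square test of homogeneity compared the 3 counts of each miRNA with library sizes scaled by the trimmed mean of M values (TMM), with Benjamini-Hochberg adjustment over all 391 miRNAs averaging 10 counts or more. Of the 6 members 5 passed this minimum, and miR-92b-5p did not. All 5 tested members differed between libraries at an adjusted p under 0.05, against 80.6% of all miRNAs tested. Among miRNAs averaging 100 counts or more, as these 5 do, 244 of 259 were called. The count is thus close to that of the whole table.

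The adjusted p was 6.2e-95 for miR-92a-3p, 1.8e-56 for miR-363-3p, 2.5e-37 for miR-32-5p, 2.6e-09 for miR-92b-3p and 3.9e-05 for miR-25. The call for miR-25 was lost when libraries were scaled by their totals alone, with an adjusted p of 0.0785. For the other 4 members the call held under the DESeq2 size factors, the totals, both other count minimums and with any 1 animal left out. The test compares these libraries and not conditions, and at this depth it detects small differences.

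In size, the differences were modest. The highest animal exceeded the lowest, in TMM-scaled CPM, by 1.83-fold for miR-363-3p, 1.81-fold for miR-92b-3p, 1.59-fold for miR-32-5p, 1.40-fold for miR-92a-3p and 1.25-fold for miR-25. None of the 5 spanned more than 2-fold, a span that 39.9% of all miRNAs tested exceeded. Among those averaging 100 counts or more, as the 5 members do, 82 of 259 exceeded it. The median span of the 5 was 1.59-fold, beside 1.69-fold over all 391 and 1.58-fold over the 259 averaging 100 counts or more.

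**Figure D3:**
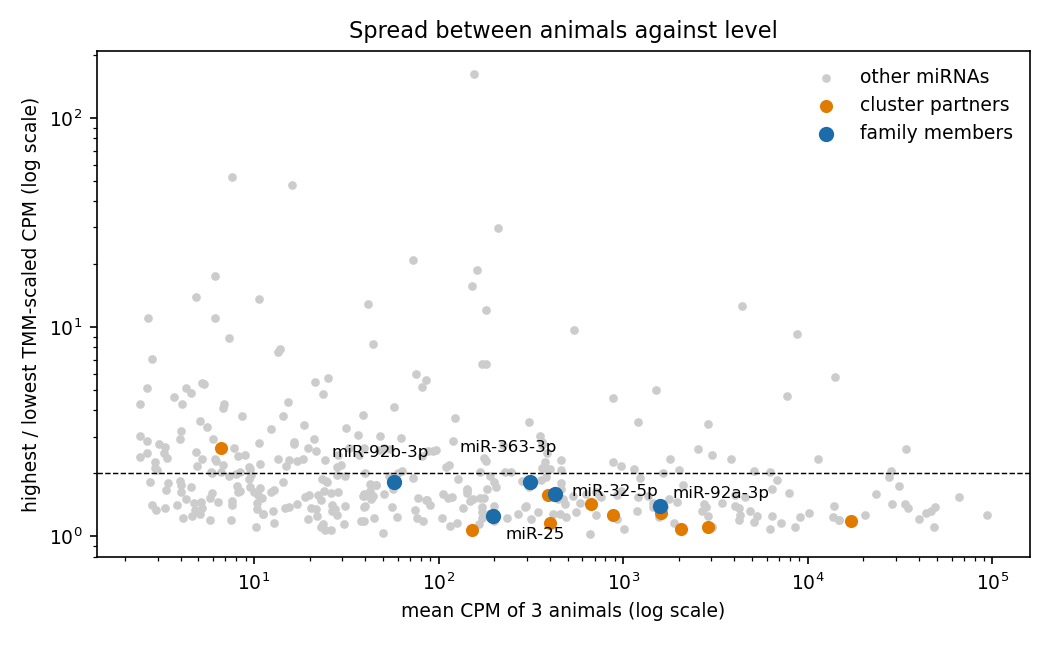
Highest over lowest TMM-scaled CPM among the 3 animals against mean CPM, both on log scales, for tested miRNAs, leaving out 3 with a count of 0 in a library. The 5 tested family members in blue lie under the dashed line at 2-fold, with miR-363-3p highest at 1.83 and miR-25 lowest at 1.25, and 1 cluster partner in orange, miR-93-5p, lies above it.

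The members did not share one pattern across animals. Animal 3 was the highest for miR-92a-3p, miR-25 and miR-92b-3p, and animal 1 was the highest for miR-32-5p and miR-363-3p. Relative to the mean of the other 2 animals on log2(TMM-scaled CPM + 1), animal 3 lay at 0.44 for miR-92a-3p, 0.64 for miR-92b-3p, 0.24 for miR-25, 0.00 for miR-363-3p and -0.56 for miR-32-5p. The highest and the lowest animal of each of these 5 members were the same under TMM, DESeq2 size factors and totals.

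Among the tested members 1 of 5, miR-32-5p, was lowest in animal 3, against 41.9% of all miRNAs tested. For miR-32-5p the ratio of animal 1 to animal 3 was 1.59 (exact 95% confidence interval for counting error 1.48 to 1.71), and that of animal 1 to animal 2 was 1.17 (1.10 to 1.24). For miR-363-3p the ratio of animal 1 to animal 2 was 1.83 (1.70 to 1.97). For miR-92a-3p the ratio of animal 1 to animal 2 was 0.939 (0.907 to 0.971), so that most of its span came from animal 3. Without that animal the span of miR-92a-3p was 1.07-fold.

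Markers of other cells in the tissue were summed for comparison. The 4 erythroid names, of miR-451, miR-144 and miR-486, summed to 4971, 4158 and 6130 TMM-scaled CPM, highest in animal 3 as miR-92a-3p was, but lowest in animal 2. The 5 vascular names, of miR-126, miR-143 and miR-145, summed to 77216, 68171 and 90587, again highest in animal 3. The 4 leucocyte names, of miR-223, miR-142 and miR-150, summed to between 1603 and 1642.

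The names within each list did not move together. The erythroid sum was carried by miR-451, with 4322, 3708 and 5727 TMM-scaled CPM, while miR-144 had 626, 403 and 346 and was lowest in animal 3. Both arms of miR-486 were lowest in animal 1. The vascular sum was highest in animal 3 through miR-145-5p, with 19578, 25230 and 40398. miR-143-5p was also highest in animal 3, at far lower levels of 2.07, 1.01 and 48.1. By contrast, miR-126, miR-143-3p and miR-145-3p were highest in animal 1. Among the leucocyte names miR-150-5p was highest in animal 3 and miR-142-3p was lowest there, and miR-223 was highest in animal 2. All names of these lists had counts in every library, and their part in the level of miR-92a-3p was not tested.

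The arms of a precursor could be compared for 1 of the 5 stems, miR-92b, the only one with both arms listed. The guide arm miR-92b-3p had more counts in every animal, as 1 arm did consistently for 92.6% of the 122 hairpins that had both arms in the table and averaged 10 or more counts over them. The opposite arm made up 4.71%, 3.48% and 0.353% of the hairpin's counts in animals 1, 2 and 3, with 95% Wilson intervals of 2.50 to 8.71, 1.90 to 6.29 and 0.0624 to 1.97.

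Animal 3 thus held a smaller share of miR-92b-5p than the other 2 animals, on a single read. The arm shares differed between libraries by a chi-square test of the 2 arms with Benjamini-Hochberg adjustment over 109 hairpins, at an adjusted p of 0.0122, and 71.6% of those hairpins were called. Without animal 3 the adjusted p was 0.596, so the call rests on that library. By TMM-scaled rate, animal 1 exceeded animal 3 by 7.69-fold for miR-92b-5p, with an exact counting interval from 1.07 to 337.

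The members encoded in clusters were next set beside other miRNAs of the same primary transcript, within each library. miR-92a-3p was set beside the miR-17 cluster only. Its ratios to miR-363-3p, miR-106a-5p, miR-18b and miR-20b-5p, from the cluster of its second gene, were not calculated. All 10 partner names looked for were listed. Levels of different miRNAs are compared here as reads, and how the authors assigned reads that fit several near-identical names is not given in the sources used here. Partners called different between libraries numbered 9 of 10 by the chi-square test, the exception being miR-18b, against 80.6% of all miRNAs tested. Only miR-93-5p, 1 of the 10, spanned more than 2-fold, against 39.9% of all. Its span of 2.65-fold fell to 1.14-fold without animal 2. The median span of the 10 was 1.23-fold.

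miR-25 lay between its partners, far from both. miR-106b-5p, a member of the miR-17 seed family, had 12796, 14767 and 9972 counts in animals 1, 2 and 3, which was 14.9, 16.9 and 12.1 times the count of miR-25. miR-93-5p, of the same seed family, had 21, 53 and 15 counts, and miR-25 exceeded it 41.0-fold, 16.5-fold and 54.9-fold. The order of the 3 miRNAs was the same in every animal. Only perfect matches were counted, so the count of miR-93-5p depends on its reference entry, which was not examined here. Whether that entry bears on the low counts of miR-93-5p, and so on its ratios and arm shares, was not tested.

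The miR-93 hairpin also differed in its arms. miR-93-3p, usually the passenger strand, had 46, 112 and 115 counts, more than miR-93-5p in every animal. The 5p arm made up 31.3%, 32.1% and 11.5% of that hairpin's counts (Wilson 95% confidence intervals 21.5 to 43.2, 25.5 to 39.6 and 7.12 to 18.2). In miR-106b, the neighbouring hairpin, the 5p arm made up 98.6%, 98.1% and 99.4%.

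miR-92a-3p was close to the middle of the miR-17 cluster. Its ratio to miR-17-5p, the first miRNA of the cluster, was 0.990, 0.919 and 1.07 in animals 1, 2 and 3, with exact 95% counting intervals of 0.955 to 1.03, 0.890 to 0.948 and 1.03 to 1.11, so the order of the pair was not the same in the 3 animals. miR-19b, described as the main oncogenic component of the cluster together with miR-19a, was the highest partner with 68568, 83797 and 69704 counts, 11.4, 11.5 and 9.68 times miR-92a-3p. The authors' table pairs miR-19b with human miR-19a-3p, and both miR-19b and miR-92a-3p have a second gene in the miR-106a cluster.

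miR-19a-3p exceeded miR-92a-3p in 3 of 3 animals, with 8482, 10422 and 7786 counts. miR-92a-3p exceeded miR-20a-5p 1.60-fold, 1.50-fold and 2.50-fold, and miR-18a-5p 3.31-fold, 3.52-fold and 5.33-fold. Both ratios were highest in animal 3, where miR-20a-5p and miR-18a-5p were at their lowest TMM-scaled levels and miR-92a-3p was at its highest. miR-17-5p and miR-19b were, like miR-92a-3p, lowest in animal 1 and highest in animal 3. miR-19a-3p was lowest in animal 1 and highest in animal 2.

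miR-363-3p moved differently from its X-chromosomal partners. miR-106a-5p had 2342, 3525 and 2845 counts, and its TMM-scaled CPM was lowest in animal 1, where miR-363-3p was highest. The ratio of miR-363-3p to miR-106a-5p was 0.763, 0.316 and 0.399 in animals 1, 2 and 3, with exact 95% counting intervals of 0.718 to 0.812, 0.295 to 0.338 and 0.372 to 0.427. These intervals do not overlap, and the ratio is free of scaling between libraries. Differences beyond counting error are common here, being called for 80.6% of all miRNAs tested. Pairs of miRNAs outside the clusters were not compared in this way. The ratio of miR-363-3p to miR-19b, which is also encoded in the miR-17 cluster, was 0.0261, 0.0133 and 0.0163.

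miR-20b-5p, with 1403, 1726 and 1899 counts, was likewise lowest in animal 1. miR-363-3p exceeded it 1.27-fold in animal 1 and lay at 0.645 and 0.597 of it in animals 2 and 3. miR-18b did not pass the test for a difference between libraries (chi-square adjusted p = 0.433), with TMM-scaled levels of 149.8, 157.5 and 146.7 CPM, and miR-363-3p exceeded it in 3 of 3 animals. Relative to the mean of the other 2 animals on the log2 scale, animal 1 lay at 0.65 for miR-363-3p, -0.45 for miR-106a-5p, -0.39 for miR-20b-5p and -0.02 for miR-18b. By TMM-scaled CPM, miR-106a-5p, miR-20b-5p, miR-19b and miR-92a-3p were each lowest in animal 1 and highest in animal 3. miR-18b was lowest in animal 3.

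**Figure D4:**
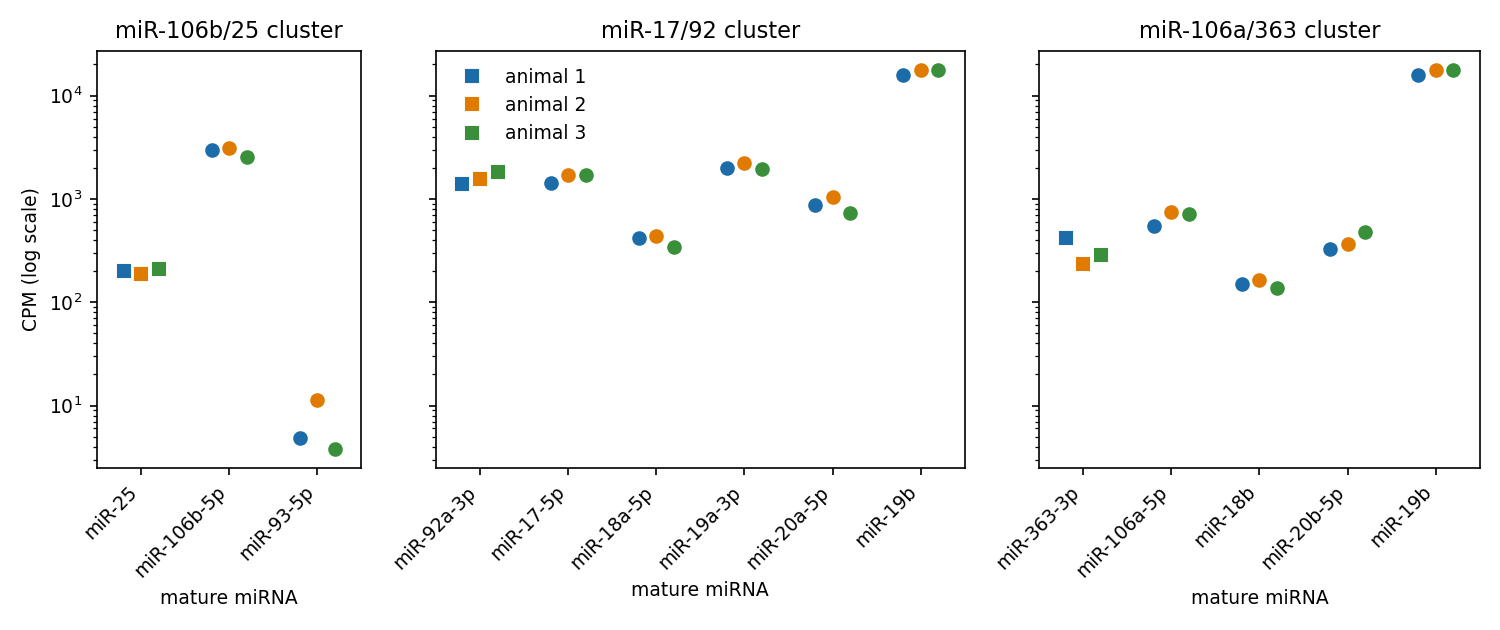
CPM (log scale) by animal for miR-25, miR-92a-3p and miR-363-3p (squares) and for the cluster partners set beside them (circles). miR-92a-3p is shown with the miR-17 cluster only. miR-25 lies between miR-106b-5p and miR-93-5p, miR-92a-3p lies beside miR-17-5p, and miR-363-3p is highest in animal 1, where miR-106a-5p and miR-20b-5p are lowest.

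The other listed arms of the partner hairpins were set beside miR-92b-5p. Of 6 such names, 4 were lowest in animal 3, which were miR-17-3p, miR-20a-3p, miR-20b-3p and miR-106b-3p. miR-106b-3p had 184, 285 and 56 counts, and miR-20b-3p had 10, 16 and 0. miR-106a-3p was lowest in animal 2, and miR-93-3p in animal 1. Among the 5 of these arms that passed the count minimum, which miR-20b-3p did not, 3 were lowest in animal 3, beside 41.9% of all tested miRNAs. The 10 partners themselves included 5 that were lowest in animal 3.

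Finally, miRNAs with the pattern most like that of miR-92a-3p were sought among the 258 other names averaging 100 counts or more, by Euclidean distance between centred log2(TMM-scaled CPM + 1) values over the 3 animals. The nearest were miR-29c-3p at a distance of 0.0315, miR-598-3p at 0.0681, miR-361-3p at 0.0690, miR-133d-3p at 0.0717 and miR-660-3p at 0.0986. miR-29c-3p, known for repressing collagen genes, had 24771, 26119 and 35305 TMM-scaled CPM, a rise in animal 3 of about the size seen in miR-92a-3p. With 3 animals a pattern consists of very few values, and the distances are descriptions.

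None of the nearest 5 belonged to the family. miR-25 was the 40th nearest to miR-92a-3p, miR-92b-3p the 56th, miR-363-3p the 179th and miR-32-5p the 193rd of the 258.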

How the data were processed

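Small RNA from kidney cortex of 3 untreated animals was sequenced, 1 library each. The authors' mapping to M. fascicularis miRNAs allowed 0 mismatches, per the file headers, and they deposited the raw count of each of 432 mature miRNAs. The smallest sum over the libraries was 15. The aligner, the miRNA release and the treatment of reads matching several names are not given in the sources used here. A perfect match loses reads with a variant base or an error. Per the file headers, the authors' second table is a normalized signal made with edgeR, also named in the submitters' processing notes. It equals the raw count times a single factor per library (0.989, 0.951 and 1.06) and served as an alternative and for human names. Columns of per-sample values left unused numbered 0.

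CPM used the totals of listed counts. TMM factors (1.01, 1.05 and 0.940) came from edgeR 4.0.16 in R 4.3.3, and size factors from DESeq2 1.42.0. Tests used Python 3.11.15 with scipy 1.17.1 and a threshold of 0.05. The arm test required expected counts of at least 5. The chi-square test was tried on simulated counts with known changes and counting error only. That check does not cover spread between animals or between library preparations. A pseudocount of 1 CPM was added on log scales. Totals of 3957188 to 4707892 counts set the precision.

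The miRNAs named are all members, their cluster partners with both arms, marker lists and the 5 nearest patterns. The members, lists and tests were chosen with earlier results of these data known. Naming miRNAs by a shared seed sequence was planned and not done, because sequences were not used here. Marker names miR-122 and miR-124 were matched to miR-122a and miR-124a. The muscle list summed to 441 CPM and the neuron list to 120 CPM on average.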

Additional observations from a re-analysis of the deposited data

How the results depend on the processing

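Of 48 recalculated values of the comparison results, 42 kept their direction and side of the threshold, or stayed within the SD between animals or within 1.5 times for counts. Many of these could not have moved that far, such as means with 1 of 3 animals left out. The family share ranged from 0.254% to 0.263% over all alternatives. With no count minimum miR-92b-5p entered, and 1 member instead of 0 spanned more than 2-fold. The adjusted chi-square p of miR-92b-5p was then 0.0822. Leaving out animal 3 changed the number of family hairpins with a differing arm share from 1 to 0, and it stayed 1 without animal 1. Without animal 2 an expected count fell under 5 and the arm test was not run.

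The level of a member against the geometric mean of its cluster partners, a log2 ratio, depended on single partners, in alternatives chosen after seeing the data. For miR-25 it was 0.49 ± 0.51 (SD) and became -3.85 without miR-93-5p and 4.82 without miR-106b-5p, its only partners. For miR-92a-3p it was -0.20 ± 0.25 and became 0.61 without miR-19b. For miR-363-3p it was -1.57 ± 0.54 and became -0.15 without miR-19b. These moves follow from the construction, since the partners' levels lie far apart, and the value for miR-25 also rests on the few counts of miR-93-5p. No paired analysis was possible because a replicate block needs groups to compare and all libraries belong to one group. Differences within animals were tested for the order of the members. The 1 count of miR-92b-5p in animal 3 limits every statement on that arm.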
